A study of Mus musculus with 8 samples.

Results

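The mitochondrial genome encodes 37 genes, and all 37 were present among the 52636 genes of a count table made from mouse epiblast. They were taken as every gene whose symbol begins with mt-, which gave 13 mRNAs, 2 rRNAs and 22 tRNAs. Of these, 7 mRNAs, both rRNAs and 1 tRNA passed the filter on low counts and were tested, among 18321 tested genes in all. The data are RNA sequencing counts from 8 libraries of epiblast, the embryonic tissue that forms the body, at embryonic day 5.5. Every embryo had the genotype Sox2Cre;CRAFR26, in which a Cre recombinase under Sox2 control acts in the epiblast, so neither the Cre nor the construct differed between groups and the controls carried both. The embryos were cultured for 4 h in medium with 250 nM 4-hydroxytamoxifen (4OHT), which the labels give as the inducer of ERK signalling, or with its vehicle ethanol. The vehicle titles give the time as 0 h where another label has 4 h in vehicle, so a contrast of 4OHT with vehicle may also hold 4 h of culture. The labels name clone 4 and clone 8 of the cRAFR26 line, each with 2 vehicle and 2 4OHT libraries. The comparisons ask whether mitochondrial transcripts changed with the treatment and whether they differed between the clones. Each library pooled 10 epiblasts, microdissected to remove the extraembryonic layers, and started from 7 ng of RNA. Markers of those layers were still counted in every library, as given below. Nothing in the labels says that replicates came from separate litters, so p-values measure only the spread between these pools.

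Mitochondrial DNA is a small circle that is transcribed from both strands as long precursors. Transfer RNAs lie between most of the other genes, and cutting them out releases the mRNAs and rRNAs. The mRNAs encode membrane subunits of the respiratory chain complexes I, III and IV and of the ATP synthase, complex V, and the rRNAs form the core of the mitochondrial ribosome. Precursors are made at similar rates for neighbouring genes, and much of the difference between mature transcripts is known to arise from processing and stability. All but one of the mRNAs are read from the same strand as the rRNAs. The exception is mt-Nd6, which lies on the other strand, as do 8 of the tRNAs.

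Among the mRNAs, those with almost no counts all lie in the same stretch of the genome, and the cause of their low counts was not tested. In this annotation (GENCODE M21 on GRCm38, the build also called mm10), 6 mRNA genes lie whole inside chrM:6390-11042, a stretch of 4653 bases. Annotated pseudogenes on chromosome 1 copy that stretch at chr1:24611535-24616197, on the minus strand. mt-Atp8 has no annotated copy of its own, and its place in the copy is inferred: most of it lies in a gap of 233 bases between annotated copies, of equal length on both chromosomes, whose sequence was not compared. The 7 pseudogenes matched the mitochondrial genes at 99.7% to 100% over 4140 aligned bases, with 2 mismatches in all. They also stand in the same order as the mitochondrial genes, and the gaps between neighbours were equal on both chromosomes except between mt-Nd3 and mt-Nd4l, where the copy had 74 bases and the mitochondrial genome 73. One of the mismatches, T3C counted from the first base of mt-Nd3, stands in the first 60 bases of that gene (chrM:9459-9518, plus strand) and of its copy Gm28438 (chr1:24613060-24613119, minus strand). Both are shown 5′ to 3′ because the gene was listed at 0 and its copy was not. The capital marks the base that differs.
mt-Nd3: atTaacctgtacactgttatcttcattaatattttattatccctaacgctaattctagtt
Gm28438: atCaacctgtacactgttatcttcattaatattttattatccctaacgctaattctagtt
The other mismatch is A1066T in mt-Co1. Only the end of mt-Co1 and the start of mt-Nd4 reach into the copied stretch, and 60 bases around each edge are shown because reads were counted for both genes. Capitals mark the bases inside the copied stretch, which in mt-Co1 include the mismatch A1066T, for mt-Co1 at chrM:6360-6419 and for mt-Nd4 at chrM:11013-11072, both on the plus strand.
mt-Co1: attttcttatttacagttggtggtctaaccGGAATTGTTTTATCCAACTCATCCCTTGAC
mt-Nd4: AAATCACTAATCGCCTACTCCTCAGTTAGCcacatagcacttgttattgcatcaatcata

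The 6 mRNAs inside the copied stretch were those with almost no counts. No library had a count for mt-Atp8, which encodes a subunit of the ATP synthase, for mt-Co3, a subunit of cytochrome c oxidase (complex IV), or for mt-Nd3 and mt-Nd4l, subunits of NADH dehydrogenase (complex I). The complex IV subunit mt-Co2 had 5 counts in 1 library and 0 in the others, and the ATP synthase subunit mt-Atp6 had at most 2. The 7 mRNAs that lie outside the stretch, or only in part inside it, all passed the filter, with at least 1249 counts each in every library. In bases, 38.0% of the mRNA genes' length lay in the copied stretch. How reads that align to several places were counted is not given in the sources used here, so the levels of these 6 genes could not be read. For the same reason the counts of mt-Co1 and mt-Nd4 may come from only part of each gene. Summed values below therefore describe 7 of the 13 mRNAs, and complex V is represented by 0 to 2 counts per library.

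**Figure D1:**
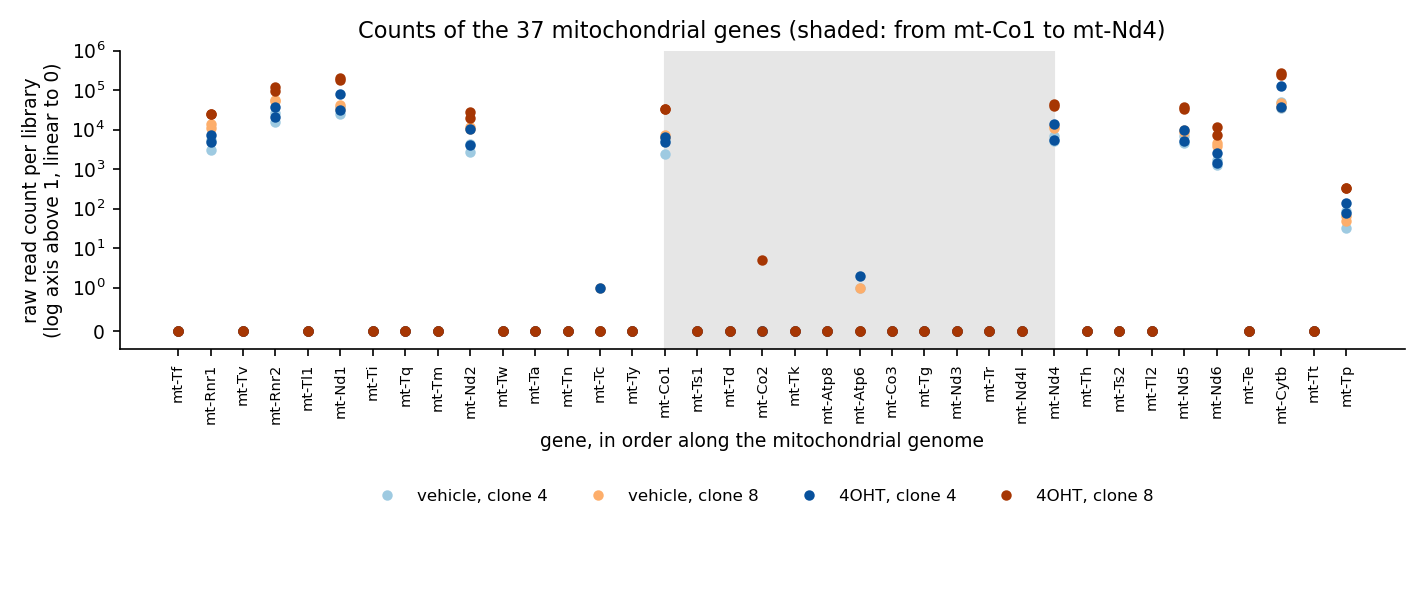
Counts of the mitochondrial genes in the order in which they lie on the genome, for the 8 libraries, with the counts on the vertical axis. The 6 mRNA genes at or near 0 are those that lie whole in the stretch copied on chromosome 1, and points at 0 lie on top of each other.

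The copies themselves had few counts with 1 exception. Gm28438, the copy of mt-Nd3, had 333 and 713 counts in vehicle clone 4, 838 and 720 in vehicle clone 8, 666 and 476 in 4OHT clone 4 and 1139 and 1327 in 4OHT clone 8. The other 10 pseudogenes with at least 95% identity to a mitochondrial mRNA had between 10 and 184 counts per library when summed. As the sequences above show, Gm28438 and mt-Nd3 differ at a base near their first end, and the counts do not say from which of the pair the RNA came. Gm28438 was called in no contrast. Its log2 fold change with 4OHT in clone 8 was -0.16 (SE 0.39, edgeR adjusted p = 0.812).

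Of the tRNAs, 20 of 22 were listed at 0 in every library and mt-Tc had 1 count in each of 2 libraries. Only 5 of the 22 lie whole in the stretch copied on chromosome 1, and the cause of the low tRNA counts was not tested. The proline tRNA mt-Tp (chrM:15356-15422, minus strand) was the only one above the filter, and its 67 bases are shown whole because it is the only mitochondrial tRNA with a testable value.
mt-Tp: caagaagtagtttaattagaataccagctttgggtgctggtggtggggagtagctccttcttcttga
It lies on the strand opposite to the precursor that carries mt-Cytb. The use of strand in counting is not given in the sources used here, so reads from mt-Tp, and from mt-Nd6, cannot be told apart from reads of the opposite strand.

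Levels were compared between genes as counts per mega-count of the library (CPM) per kilobase of annotated length. mt-Cytb (chrM:14145-15288), cytochrome b of complex III, had a median over the 8 libraries of 1291 CPM per kb, with a range of 591 to 3924. mt-Nd1 (chrM:2751-3707), a complex I subunit, followed with a median of 1172 CPM per kb and a range of 578 to 3493, and these 2 genes did not separate by their ranges. The large rRNA mt-Rnr2 (chrM:1094-2675) had a median of 704 CPM per kb and the small rRNA mt-Rnr1 (chrM:70-1024) one of 247. The complex I genes mt-Nd2 (chrM:3914-4951), mt-Nd4 (chrM:10167-11544), mt-Nd6 (chrM:13552-14070, minus strand) and mt-Nd5 (chrM:11742-13565) had medians of 211, 190, 153 and 124 CPM per kb, and mt-Co1 (chrM:5328-6872), the catalytic subunit of complex IV, had 112. Counted over the bases outside the copied stretch alone, mt-Nd4 would stand at 520 and mt-Co1 at 162 CPM per kb, so their places in the order depend on how shared reads were treated. The ranges of neighbouring genes in this order overlapped throughout. The order also changed between groups: in vehicle clone 8, mt-Nd1 had a mean of 1162 CPM per kb and mt-Cytb 1112, and in 4OHT clone 8 mt-Nd4 (504) stood above mt-Rnr1 (436), and mt-Co1 (353) above mt-Nd5 (311) and mt-Nd6 (299). Whether and how rRNA was depleted is not given in the sources used here.

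Depth was 33.3 M to 38.0 M counts per library (M, mega) with vehicle and 56.4 M to 72.5 M with 4OHT, and 23138 to 23832 genes were detected in each. None of the 12 epiblast markers, 18 visceral endoderm markers or 15 extraembryonic ectoderm markers was at 0 in any library. Summed, the epiblast markers held 5316 to 6737 CPM, those of visceral endoderm, a layer that surrounds the epiblast, 561 to 3475 CPM, and those of extraembryonic ectoderm 339 to 1019 CPM. In pools of tissue, fewer cells of a type and less RNA per cell cannot be told apart.

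The mitochondrial RNA that was counted took a small share of the counts, and the largest share was in the 4OHT libraries of clone 8. This share lacks the 6 mRNAs whose levels could not be read, so it is not the share of all mitochondrial RNA. In vehicle, the 37 genes held 0.248% and 0.417% of the counts of the clone 4 libraries and 0.470% and 0.619% of those of clone 8. With 4OHT the shares were 0.205% and 0.408% for clone 4, and 1.35% and 1.19% for clone 8. The mRNAs alone held 0.262% ± 0.0895 (SD, n = 2) in vehicle clone 4, 0.356% ± 0.0762 (SD, n = 2) in vehicle clone 8, 0.253% ± 0.132 (SD, n = 2) in 4OHT clone 4 and 1.04% ± 0.0928 (SD, n = 2) in 4OHT clone 8. The means of the rRNAs stood in the same order of groups, but the gaps between them differed. They held 0.0696% ± 0.0298 (SD, n = 2) in vehicle clone 4 and 0.188% ± 0.0291 (SD, n = 2) in vehicle clone 8, against 0.0538% ± 0.0114 (SD, n = 2) and 0.229% ± 0.0253 (SD, n = 2) in the 4OHT libraries of clones 4 and 8. The rRNA share thus stood higher in clone 8 in both conditions, while the mRNA share stood apart only in clone 8 with 4OHT. By complex, complex I subunits, without mt-Nd3 and mt-Nd4l, held 0.567% and 0.499% of the counts in those last libraries. The complex III subunit mt-Cytb held 0.483% and 0.419%, and the complex IV subunits, in effect mt-Co1, 0.0581% and 0.0575%.

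**Figure D2:**
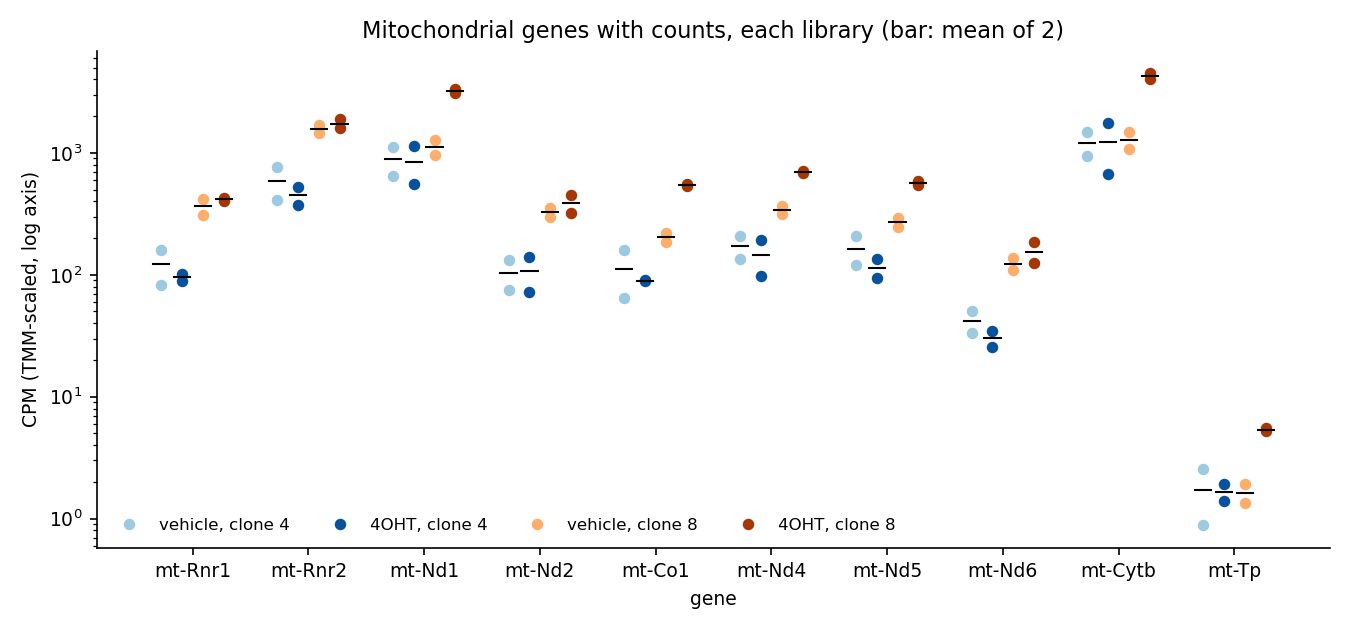
CPM of the 10 tested mitochondrial genes in each of the 8 libraries (log axis), coloured by clone and condition. Both rRNAs are higher in all clone 8 libraries than in any clone 4 library, and mt-Nd1 and mt-Cytb stand apart only in the 4OHT libraries of clone 8.

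The first comparison asked whether 4OHT changed mitochondrial transcripts over both clones, in a fit of all 8 libraries with clone as a term. None of the 10 tested members was called by the quasi-likelihood test of edgeR (adjusted p below 0.05), against a background of 0.00546% of all tested genes (1 gene; 3088 genes had an unadjusted p under 0.05). DESeq2 also called none of the members, though it called 1053 genes. The ranges of vehicle and 4OHT libraries overlapped for each of the 10. The widest differences were those of mt-Cytb, at 0.88 on the log2 scale (SE 0.40, adjusted p = 0.301), mt-Tp, with 0.85, and mt-Nd1, with 0.73 (SE 0.35, adjusted p = 0.327). The rRNAs had log2 fold changes of -0.08 (mt-Rnr1) and -0.13 (mt-Rnr2). Each clone is therefore given on its own.

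In clone 8, mt-Cytb of complex III, mt-Co1 of complex IV and the complex I mRNAs mt-Nd1, mt-Nd4 and mt-Nd5 were higher with 4OHT, and the rRNAs did not pass the test. 6 of the 10 tested members were called, all higher, where 16.6% of all tested genes were called (3041 genes) and 8% were called higher. Because the members come from shared precursors and share the 4 libraries, they are not independent of each other. mt-Cytb measured 1072 and 1472 CPM in the vehicle libraries and 4489 and 4015 CPM in the 4OHT libraries. Both 4OHT values lay above both vehicle values, at 3.34 times their mean, and the log2 fold change was 1.74 (SE 0.39, adjusted p = 0.0200). mt-Nd1 measured 953 and 1271 CPM in vehicle and 3343 and 3107 CPM with 4OHT. Its groups did not overlap either, though overlap was not counted over all tested genes. The log2 fold change of mt-Nd1 was 1.54 (SE 0.33, adjusted p = 0.0185). mt-Co1 measured 186 and 219 CPM in vehicle and 540 and 551 CPM with 4OHT (log2 fold change 1.43, SE 0.32, adjusted p = 0.0204). Among the other complex I subunits, mt-Nd5 rose from 247 and 293 CPM to 589 and 545 CPM, by 1.07 on the log2 scale (SE 0.25, adjusted p = 0.0224). mt-Nd4 rose from 314 and 368 CPM to 705 and 683 CPM (log2 fold change 1.02, SE 0.29, adjusted p = 0.0408). The proline tRNA mt-Tp had 1.34 and 1.93 CPM in vehicle and 5.21 and 5.52 CPM with 4OHT, and was called as well (log2 fold change 1.72, SE 0.48, adjusted p = 0.0395).

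The other 4 members did not pass the test in clone 8. mt-Rnr1 measured 312 and 417 CPM in vehicle and 404 and 428 CPM with 4OHT, and mt-Rnr2 measured 1455 and 1681 CPM and then 1888 and 1591 CPM. The groups overlapped for both rRNAs, whose log2 fold changes were 0.19 (SE 0.26, adjusted p = 0.657) and 0.15 (SE 0.26, adjusted p = 0.731). Of the complex I subunits, mt-Nd2 stood at 0.25 on the log2 scale (SE 0.33, adjusted p = 0.644) and mt-Nd6 one of 0.34 (adjusted p = 0.380), and their groups overlapped too. The calls rest on few libraries. Without replicate 1 of the vehicle libraries of clone 8 none of the 7 mRNAs, and no gene of the whole table, was called. Without replicate 2 of those libraries only 1 mRNA was called, and with the clone 8 libraries fitted alone none was (lowest adjusted p among the mRNAs 0.0578), while the fold changes kept their direction for each called mRNA. That fit of clone 8 alone called 3 genes in all. The call of mt-Tp was also lost without either 4OHT library of clone 4 or of clone 8, so the removal of any of 6 libraries ended it. The call of mt-Nd4 was lost with the removal of any of 5 libraries. Over the removals the log2 fold change ran from 1.45 to 1.97 for mt-Tp and from 0.889 to 1.11 for mt-Nd4.

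Other measures moved with the same contrast. In clone 8 the summed visceral endoderm markers measured 2174 and 2168 CPM in vehicle and 561 and 1466 CPM with 4OHT. Of these, 9 of 18 were called lower, where 8.6% of all tested genes were called lower. The extraembryonic ectoderm markers summed to 339 and 383 CPM and then 998 and 862 CPM. Of the 15, 11 were called higher, where 8% of all tested genes were, and 1 was called lower. The epiblast markers summed to 6185 and 6378 CPM and then 5461 and 5316 CPM, with 4 of 12 called lower and 0 higher. Malat1, a long RNA held in the nucleus, measured 174 and 141 CPM in vehicle and 283 and 258 CPM with 4OHT (log2 fold change 0.78, adjusted p = 0.0155). The total counts were 37.8 M and 33.3 M in vehicle and 58.0 M and 57.4 M with 4OHT. In clone 4 they were 38.0 M and 34.6 M in vehicle and 56.4 M and 72.5 M with 4OHT. The part of these measures in the mitochondrial result was not tested.

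In clone 4 no mitochondrial gene was called higher or lower with 4OHT, against a background of 0.0382% (7 genes; 1814 had an unadjusted p under 0.05). DESeq2 called none of the members either and 468 genes in all. The groups overlapped for each of the 10 tested members. mt-Cytb measured 943 and 1481 CPM in vehicle and 676 and 1764 CPM with 4OHT, so the replicates of each condition were further apart than the conditions (log2 fold change 0.01). mt-Nd1 measured 652 and 1114 CPM in vehicle and 553 and 1128 CPM with 4OHT. For mt-Rnr2 the values were 411 and 772 CPM in vehicle and 374 and 522 CPM with 4OHT, and the log2 fold change was -0.40 (SE 0.26, adjusted p = 0.718). Over the 10 members the median log2 fold change was -0.28, against -0.0047 over all tested genes. In this clone the visceral endoderm markers summed to 1007 and 666 CPM in vehicle and 3057 and 3475 CPM with 4OHT, the opposite order to clone 8.

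Whether the clones responded differently was tested as an interaction. mt-Nd5 was the only member called, with a response that was 1.58 higher on the log2 scale in clone 8 than in clone 4 (SE 0.35, adjusted p = 0.0491), where 2.83% of all tested genes were called. It measured 120 and 207 CPM in vehicle clone 4 and 94.0 and 135 CPM in 4OHT clone 4. This call lies at the threshold. It was lost with RLE size factors, with scaling by nuclear genes alone, and without any single library of clone 4 or of vehicle clone 8, where the adjusted p was between 0.0592 and 0.205. The differences of the other members did not pass: 0.0713 was the adjusted p for mt-Co1, 0.092 for mt-Nd1, 0.11 for mt-Cytb and 0.118 for mt-Nd4. For the rRNAs it was 0.41 or more and for mt-Nd2 0.834. More mitochondrial mRNAs were called in this contrast with DESeq2, with no expression filter and with the replicate number as a block, as given below. Calls over all genes also rose with DESeq2 and with no filter, and are not given for the block. Malat1 also differed in response (1.68 on the log2 scale, adjusted p = 0.0207). Of the visceral endoderm markers, 13 of 18 were called lower in this contrast, where 1.75% of all tested genes were called lower. Of the 15 extraembryonic ectoderm markers, 7 were called higher and 1 lower, where 1.08% of all tested genes were called higher.

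**Figure D3:**
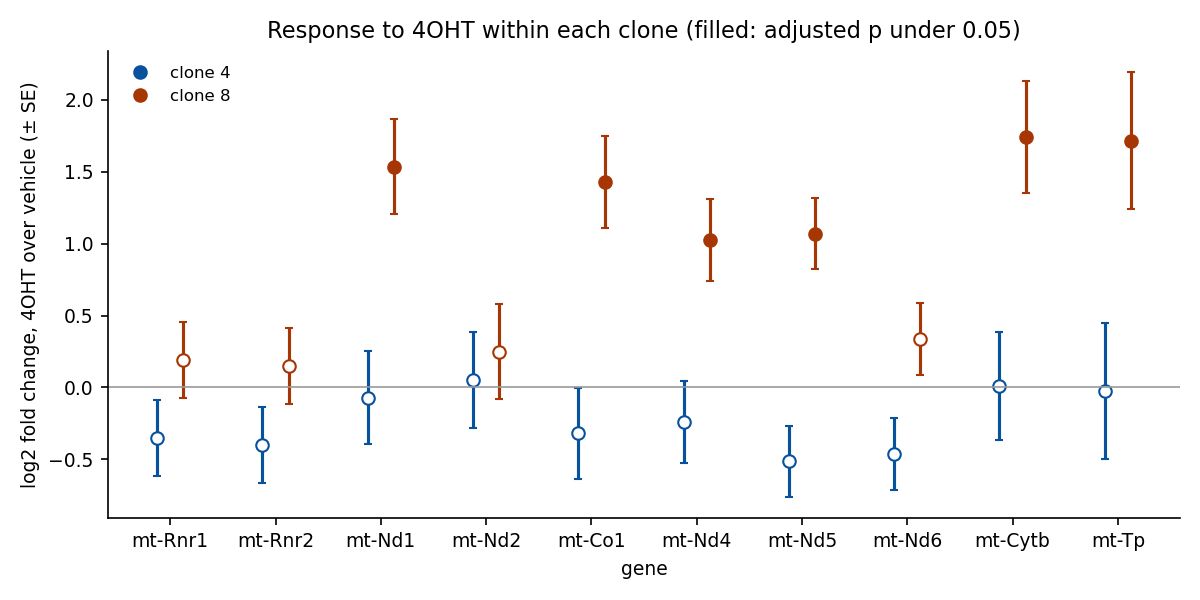
Log2 fold change of 4OHT against vehicle for the 10 tested mitochondrial genes in clone 4 and clone 8, with bars of 1 SE; filled points have an adjusted p under 0.05. The 6 filled points all belong to clone 8, and mt-Rnr1, mt-Rnr2 and mt-Nd2 lie near 0 there.

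Between the clones, both rRNAs, mt-Nd2 and mt-Nd6 were higher in each clone 8 library than in every clone 4 library, as were mt-Co1, mt-Nd4 and mt-Nd5. Overlap of ranges was not counted over all tested genes in any contrast, so this separation has no background to be set against. In a fit of all 8 libraries with treatment as a term, none of the 18321 tested genes was called, a background of 0%, while 2921 genes had an unadjusted p under 0.05 and DESeq2 called 666. The 4 lowest p-values of all genes belonged to mitochondrial ones. mt-Rnr1 stood first, with 82.1 and 161 CPM in vehicle and 89.2 and 101 CPM in 4OHT libraries of clone 4, against 312 to 428 CPM in clone 8. Its log2 fold change was 1.86 (SE 0.21, adjusted p = 0.0647), and its mean was 3.60 times higher. mt-Nd6 stood next, with 33.4, 50.01, 25.6 and 34.9 CPM in clone 4 and 109, 137, 184 and 126 CPM in clone 8 (log2 fold change 1.96, SE 0.23, adjusted p = 0.0647). mt-Rnr2 followed, at 1.68 on the log2 scale (SE 0.21, adjusted p = 0.0794). mt-Nd2 measured 74.5 and 131 CPM in vehicle and 71.9 and 141 CPM in 4OHT libraries of clone 4, and 296, 353, 447 and 324 CPM in the same order in clone 8 (log2 fold change 1.76, SE 0.24, adjusted p = 0.127).

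The remaining members ranked lower. mt-Nd4 (log2 fold change 1.62) was 17th by p-value, mt-Nd5 (1.52) 64th and mt-Co1 (1.74) 84th. mt-Nd1 (1.14, SE 0.36, adjusted p = 0.215), mt-Cytb (0.94) and mt-Tp (0.84) overlapped between the clones. The count of calls turned on 1 library: without replicate 2 of the vehicle libraries of clone 4, 5 genes were called in the whole table, and these were mt-Rnr1 (adjusted p = 0.000972), mt-Rnr2 (0.00141), mt-Co1 (0.00536), mt-Nd6 (0.00592) and, at the threshold itself, mt-Nd2. That library held more mitochondrial counts than the other vehicle library of clone 4. DESeq2 called 8 of the 10 members, and the mean of the 2 within-condition contrasts in the fit of the 4 groups called 21 genes, 7 of them mitochondrial.

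The clones were also compared within each condition, in the fit of the 4 groups, an addition made after the data had been seen. Among vehicle libraries 4 of the 10 members were called, where 8.37% of all tested genes were called (1534 genes). These were mt-Nd6 (log2 fold change 1.56, adjusted p = 0.0206), mt-Rnr1 (1.59, adjusted p = 0.0208), mt-Rnr2 (1.41, adjusted p = 0.0240) and mt-Nd2 (1.66, adjusted p = 0.0279), the same 4 genes that did not pass the test with 4OHT in clone 8. Among 4OHT libraries 0.202% of genes were called (37 genes). Of the 11 that were higher in clone 8 (0.06% of all tested genes), 6 were mitochondrial: mt-Nd5 (2.31) and mt-Nd6 (2.36) with an adjusted p of 0.0218, and mt-Co1 (2.61), mt-Nd4 (2.26), mt-Rnr1 (2.13) and mt-Rnr2 (1.96) with an adjusted p of 0.0350 to 0.0370. The contrast in vehicle and the response within clone 8 share the vehicle libraries of clone 8. In vehicle libraries the visceral endoderm sum was 2174 and 2168 CPM in clone 8 and 1007 and 666 CPM in clone 4, and in 4OHT libraries it was 561 and 1466 CPM against 3057 and 3475 CPM. The extraembryonic ectoderm sum was 339 and 383 CPM in clone 8 and 1019 and 697 CPM in clone 4 with vehicle, and 998 and 862 CPM against 907 and 930 CPM with 4OHT. The part of these markers in the clone difference was not tested. The log2 fold change of clone 8 over clone 4 was above 0 in both conditions for 9 of the 10 members, and the exception was mt-Tp, with -0.06 in vehicle. The members are not independent of each other, and the same count was not made over all tested genes.

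**Figure D4:**
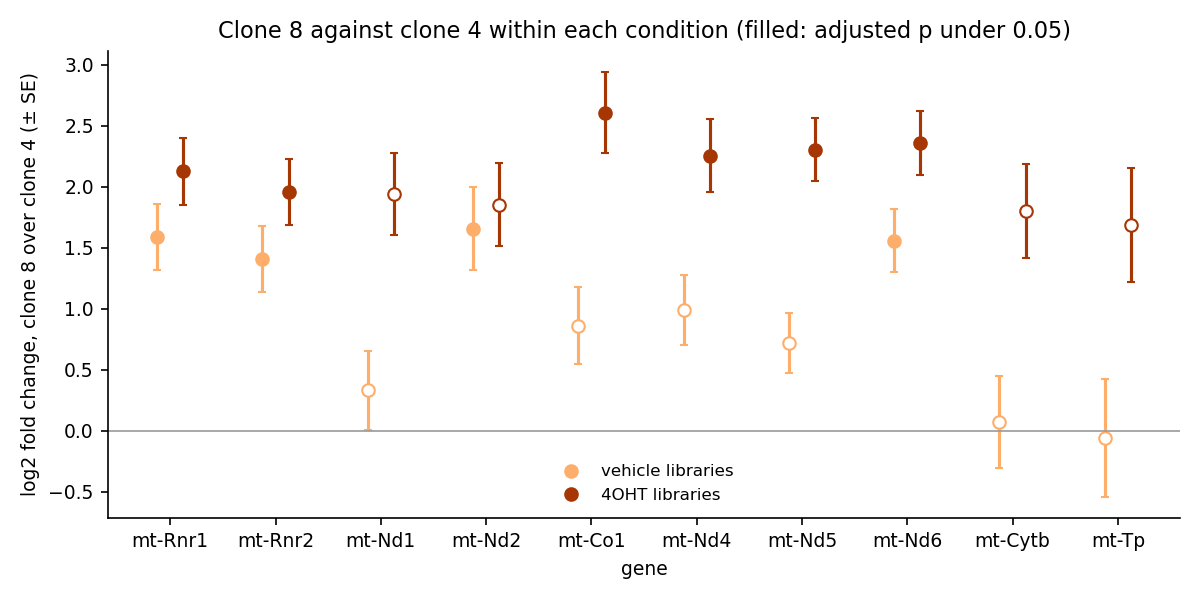
Log2 fold change of clone 8 over clone 4 within vehicle and within 4OHT libraries for the 10 tested mitochondrial genes, with bars of 1 SE; filled points have an adjusted p under 0.05. mt-Rnr1, mt-Rnr2 and mt-Nd6 are filled in both conditions, while mt-Cytb and mt-Tp lie at 0.07 and -0.06 in vehicle and at 1.80 and 1.69 with 4OHT.

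The members did not keep fixed proportions. Counts of mRNA per count of rRNA were 4.10 and 3.59 in vehicle clone 4, 3.47 and 5.59 in 4OHT clone 4, 1.80 and 1.96 in vehicle clone 8 and 4.49 and 4.63 in 4OHT clone 8. The vehicle libraries of clone 8 were thus the lowest 2 of the 8. The same libraries stood apart in the make-up of the mRNAs: mt-Nd1 and mt-Cytb together made 63.7% and 66.7% of mRNA counts there, and 76.1% to 83.0% in the other 6 libraries. mt-Cytb per mt-Rnr2 count was 0.737 and 0.876 in vehicle clone 8 and 1.81 to 3.38 elsewhere. By contrast, mt-Nd2 per mt-Rnr2 count kept within 0.170 to 0.270 over all 8 libraries and mt-Nd6 per mt-Rnr2 count within 0.0648 to 0.0977, while the level of mt-Rnr2 itself ranged from 374 to 1888 CPM. These ratios were formed after the levels had been seen, and no test was made on them.

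**Figure D5:**
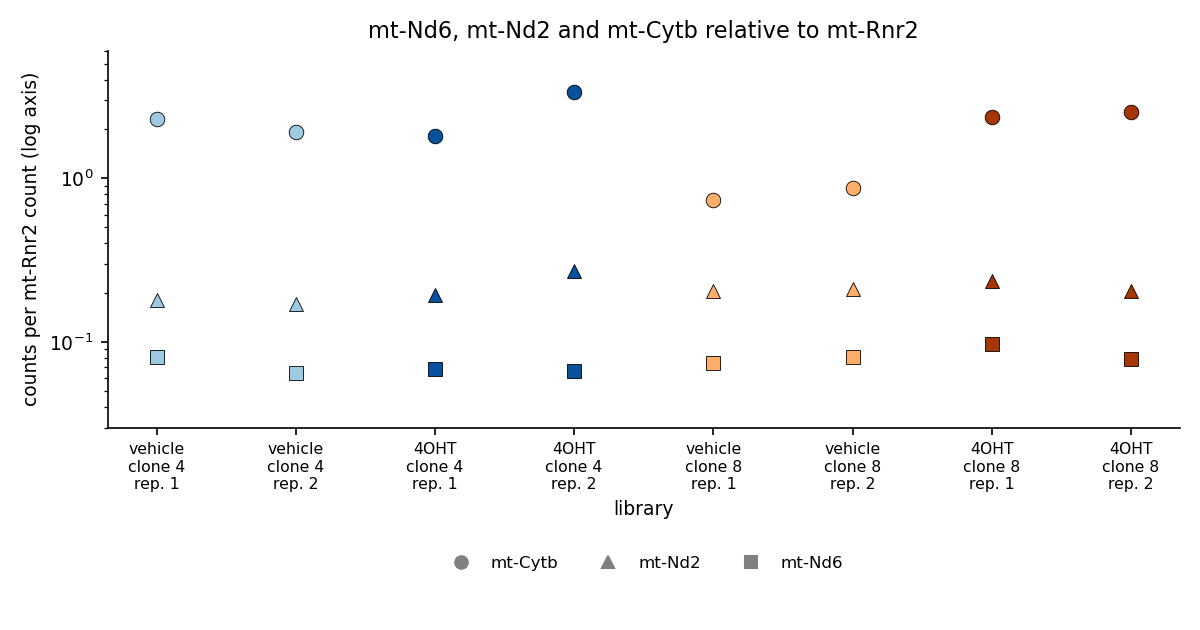
Counts of mt-Cytb, mt-Nd2 and mt-Nd6 per count of mt-Rnr2 in each of the 8 libraries (log axis). mt-Nd2 and mt-Nd6 keep a narrow range, and mt-Cytb falls below 1 only in the vehicle libraries of clone 8.

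Mitochondrial transcripts depend on proteins made from nuclear genes. A list of 53 names of genes that copy, transcribe, process or stabilise mitochondrial nucleic acids was read from the same fits. Prorp and Mrpp3 on it name the same gene. Of the names, 51 were in the table and 49 were tested. In clone 8, 8 were called higher and 3 lower with 4OHT, where 8% of all tested genes were called higher and 8.6% lower, and the list's median log2 fold change was 0.08 against 0.07 over all tested genes. Polg, the catalytic subunit of the mitochondrial DNA polymerase, had a mean of 38.0 CPM in vehicle and 98.9 CPM with 4OHT (log2 fold change 1.38, SE 0.18, adjusted p = 0.00782). Lrpprc, which stabilises mitochondrial mRNAs, rose from a mean of 138 to 203 CPM (log2 fold change 0.56, adjusted p = 0.0188), and Pnpt1, an RNA-degrading enzyme of mitochondria, rose from 73.1 to 106 CPM (log2 fold change 0.54, adjusted p = 0.0198). Gabpa, a nuclear transcription factor for respiratory genes, also rose (0.69, adjusted p = 0.0168). Hsd17b10, part of the enzyme that cuts tRNA 5′ ends, fell by 0.75 on the log2 scale (adjusted p = 0.00896), and Mrm2, a methyltransferase of the large rRNA, fell by 0.77 (adjusted p = 0.0150).

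The core transcription genes did not pass the test in clone 8. The log2 fold change was 0.36 for the RNA polymerase Polrmt (adjusted p = 0.163), -0.21 for the packaging and initiation factor Tfam (adjusted p = 0.267), 0.06 for the initiation factor Tfb2m (adjusted p = 0.836) and -0.31 for the elongation factor Tefm (adjusted p = 0.288). The poly(A) polymerase Mtpap had 0.27 (adjusted p = 0.221), the helicase Twnk 0.29 (adjusted p = 0.163) and the transcription factor Nrf1 0.09 (adjusted p = 0.575). Slirp, the partner of Lrpprc, had 0 to 7 counts per library and the coactivator Ppargc1a 0 to 6, and neither was tested. No gene of the list was called in clone 4, over both clones or between the clones, where the backgrounds were those given above. Only Pnpt1 was called in the interaction (0.77, adjusted p = 0.0479). Between the clones the median of the list was -0.12 against 0.02 over all tested genes, with 36 of 49 genes below 0, whereas each of the 10 tested mitochondrial genes was above 0, as were 51.8% of all tested genes.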

How the data were processed

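The authors deposited 1 table of whole-number read counts per Ensembl gene, without normalization, for the 8 libraries. The submitters' processing notes name bcl2fastq 2.19.1, STAR 2.5.3a and mm10, without roles. The counter, its annotation, strand use and treatment of multiply aligned reads are not given in the sources used here. Symbols matched 52403 of 52636 identifiers. The members, lists and tests were chosen with earlier results of these data known. Genes kept by filterByExpr (minimum count 10) were tested with edgeR 4.0.16 in R 4.3.3: TMM scaling, glmQLFit and glmQLFTest, Benjamini-Hochberg adjustment over 18321 genes, called at an adjusted p under 0.05. Additive fits (clone and treatment) gave the overall contrasts, and a fit of the 4 groups, which share 1 spread, gave those within clones and the interaction. CPM is counts per mega-count of the TMM-scaled total. Shares use column totals. Replicates differed beyond sampling noise (chi-square per degree of freedom 23.1 to 67.4). Depth was 33.3 M to 72.5 M counts (M, mega). Named genes were all mitochondrial mRNAs and rRNAs, tRNAs passing the filter, 12 machinery genes set by role, and up to 6 called machinery genes per contrast. Copies were found with blastn 2.17.0+ among GENCODE M21 transcripts (at least 85% identity over 50 bases), the source of all sequences. Only the contrasts of 4OHT over both clones and within clone 8 were tried on simulated counts, and those results are not given here. Alternatives were RLE, library totals, nuclear-only scaling, no filter, DESeq2 1.42.0, a replicate block, 1 clone alone, the mean of within-group contrasts and leaving out each library. The clone contrast within each condition and lengths without the copied stretch were added after seeing the data.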

Additional observations from a re-analysis of the deposited data

Results flagged for a closer look

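The response of mt-Nd5 to 4OHT differed between the clones by 1.58 on the log2 scale (edgeR interaction, adjusted p = 0.0491), higher in both 4OHT libraries of clone 8 and lower on average in clone 4. Replicate 2 of the 4OHT libraries of clone 4 stood apart from the other 3 4OHT libraries in the make-up of its mitochondrial mRNAs: mt-Nd5 made 3.88% of them, the lowest value, and mt-Nd1 with mt-Cytb made 83.0%, the highest. It is also the deepest library, with 72.5 M counts (M, mega). The gap of 1 library to the rest was examined in 56 groups of 4, and 2 such results were found. If the 4 values came from 1 population, chance would give about 2.8. Each group held libraries of both clones, whose levels differed, so that number may not hold here. Both values come from the same library and the same proportions, so they are not independent.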

How the results depend on the processing

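Counts of called genes depended on the settings, and the cause was not tested. With no expression filter, calls over all genes were 1337 for 4OHT over both clones, 728 in clone 4, 938 between clones and 2114 for the interaction, and called mitochondrial mRNAs were 4, 1, 7 and 6, with 2 rRNAs between clones and 1 for the interaction. DESeq2 called 1053, 468, 666 and 1864 genes, with 6 mRNAs and 2 rRNAs between clones and 3 mRNAs for the interaction. The mean of contrasts called 1063 genes over both clones and, between clones, 21 genes with 5 mRNAs and 2 rRNAs. In the fit of the 4 groups, the contrast between clones within vehicle gave 1534 genes, 2 mRNAs and 2 rRNAs. Within 4OHT it gave 37, 4 and 2. Separate fits of the libraries of 1 clone, which do not share the spread of all 8 libraries, gave 197 genes with 4OHT in clone 4. In clone 8 they gave 3 genes and 0 mRNAs. RLE factors and nuclear-only scaling left 0 mRNAs in the interaction. Library totals shifted the median log2 fold change of all genes in clone 8 from 0.07 to 0.19, and in the interaction from 0.05 to 0.16. The share of calls that were higher moved from 48.2% to 66.2% in clone 8 and from 38.2% to 52.1% in the interaction, and with no filter it was 55.4% and 47.2% there.

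Same-numbered libraries correlated at -0.0298 to 0.0947 in their deviations from group means. Each group has 2 libraries, whose deviations mirror each other, so these values cannot exclude a pairing by replicate number. With the replicate number as a block, calls were 0 over both clones, 0 in clone 4 and 1 between clones, an rRNA. In the interaction 4 mRNAs were called, but the count over all genes is not given here, so they have no background. The block turned the clone 4 log2 fold changes of mt-Cytb to -0.11 and of mt-Tp to 0.11. Library totals turned that of mt-Nd6 over both clones to 0.012, and mt-Tp was at -0.060 between clones in vehicle.

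Leaving out 1 library at a time gave 0 to 1 calls over both clones, 0 to 267 in clone 4, 0 to 3179 in clone 8 with 0 to 5 mRNAs, 0 to 5 between clones with 0 to 3 mRNAs and 0 to 2 rRNAs, and 0 to 1205 for the interaction with 0 to 1 mRNAs. The log2 ratio of summed shares in clone 4 ran from -0.72 to 0.40 for mRNAs and from -0.75 to 0.15 for rRNAs, while in clone 8 it stayed at 1.35 to 1.79 and 0.13 to 0.45. Log2 fold changes that turned were, over both clones, mt-Nd2 (-0.049 to 0.33), mt-Nd6 (-0.26 to 0.12), mt-Rnr1 (-0.22 to 0.18) and mt-Rnr2 (-0.25 to 0.12). In clone 4 they were mt-Co1 (-0.82 to 0.47), mt-Cytb (-0.84 to 0.54), mt-Nd1 (-0.68 to 0.37), mt-Nd2 (-0.52 to 0.52), mt-Nd4 (-0.80 to 0.16), mt-Rnr1 (-0.75 to 0.22), mt-Rnr2 (-0.78 to 0.13) and mt-Tp (-0.60 to 0.92). In clone 8 they were mt-Nd2 (-0.0047 to 0.46) and mt-Rnr1 (-0.029 to 0.38), and in the interaction mt-Nd2 (-0.30 to 0.76), mt-Rnr1 (-0.053 to 0.92) and mt-Rnr2 (-0.0076 to 0.90). Where 1 library was left in a group, it was assumed to vary like the other groups. The tested mRNAs and rRNAs had at least 1249 counts in every library, and each group had 2 libraries.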

Other observations

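The nuclear copies other than Gm28438 had too few counts for single genes to be read, but as a sum they also stood higher in clone 8. The 10 pseudogenes with at least 95% identity to a mitochondrial mRNA held 0.316 and 0.289 counts per mega-count (CPM, unscaled) in vehicle clone 4 and 0.621 and 0.91 in 4OHT clone 4. In clone 8 they held 1.17 and 1.29 in vehicle and 3.02 and 3.20 with 4OHT. None of the 8 tested copies was called in any contrast. Reads of the mitochondrial genes and of these copies cannot be told apart where their sequences match.

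The 2 rRNAs, which are neighbours on the same precursor, kept a ratio of 3.72 to 5.16 mt-Rnr2 counts per mt-Rnr1 count over the 8 libraries. mt-Cytb per mt-Nd6 count, a ratio of genes on opposite strands, was 9.85 and 10.8 in the vehicle libraries of clone 8 and 24.3 to 50.6 in the other 6.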
